A study of Mus musculus with 24 samples.

Results

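The GATOR complexes and the sestrins sense amino acids upstream of mTORC1, the kinase complex that Tsc2 restrains. The 9 genes described here were taken by name: the 3 subunits of GATOR1 (Depdc5, Nprl2 and Nprl3), 3 subunits of GATOR2 (Mios, Wdr24 and Wdr59) and the 3 sestrins (Sesn1, Sesn2 and Sesn3). They were found by their Ensembl identifiers among 47643 identifiers in the count files, and all 9 had enough reads to be tested. No measured value was used to choose them by the rule, although earlier results of these data were known when the set was proposed.

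The study deleted Tsc2 from nociceptors, the sensory neurons that detect painful stimuli, and sequenced RNA of neurons sorted from the L4 dorsal root ganglia. Control and Nav-Tsc2 mice all carried Nav1.8-Cre and the fluorescent reporter Rosa26-ZsGreen, by which cells were sorted; control mice were Tsc2 flox/+ and Nav-Tsc2 mice were Tsc2 flox/null. The controls thus also had Cre with 1 floxed allele, and the null allele of the Nav-Tsc2 mice was present in every cell of the body. Each genotype had 4 mice aged 8 to 9 weeks on a mixed C57BL/6 and AJ background, mice 1 and 2 being male and mice 3 and 4 female. All 8 mice had a sciatic nerve crush on the other side 3 days earlier, and 3 libraries of about 100 sorted cells each were made per mouse. The ganglia analysed were therefore on the uninjured side of injured animals, and there was no uninjured mouse for comparison. The Nav1.8 promoter that drives Cre is active in most nociceptors and also in some myelinated sensory neurons, so the sorted cells are a mixture of neuron types.

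GATOR1 is a GTPase-activating complex for RagA and RagB. By driving these small G proteins to their GDP-bound state it keeps mTORC1 away from the lysosome when amino acids are scarce. GATOR2 opposes GATOR1, and the sestrins bind GATOR2 and hold it back. Sestrin1 and Sestrin2 release GATOR2 when they bind leucine, and sestrin genes are known targets of stress-responsive transcription factors such as p53, the FoxO factors and ATF4. GATOR and sestrin activity is set largely by protein binding, which RNA levels do not measure.

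The sequences before the RefSeq starts of Sesn3 and Depdc5 are shown because these were the 2 members called between genotypes, and a short stretch of Sesn1 because it held the single motif match. They come from RefSeq on GRCm38.p6 (mm10), all on the plus strand and 5′ to 3′. The Sesn3 stretch covers the 250 bases before its RefSeq start, at chr9:14276051-14276300, which lies inside the longer GENCODE gene at chr9:14275067-14333101 but in none of its exons. The Depdc5 stretch, chr5:32863471-32863700, is 230 bases long and ends where the GENCODE gene begins. The Sesn1 window spans 27 bases, chr10:41810586-41810612, just after the start of 1 of its RefSeq transcripts, with the match in capitals.
Sesn3: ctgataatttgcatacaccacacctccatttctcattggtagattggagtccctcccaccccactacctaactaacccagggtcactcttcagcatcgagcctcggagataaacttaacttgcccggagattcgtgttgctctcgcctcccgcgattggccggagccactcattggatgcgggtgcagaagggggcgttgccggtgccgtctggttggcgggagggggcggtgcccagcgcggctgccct
Depdc5: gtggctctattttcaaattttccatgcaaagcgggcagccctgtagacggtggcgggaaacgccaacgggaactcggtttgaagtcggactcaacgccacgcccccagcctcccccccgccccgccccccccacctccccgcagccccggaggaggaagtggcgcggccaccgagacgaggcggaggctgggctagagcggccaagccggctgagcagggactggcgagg
Sesn1: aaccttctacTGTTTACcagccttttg

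Promoters were searched on both strands for TCACGTGA, a site of TFEB and TFE3, for TGATGNAA, a site of ATF4, and for GTAAACA, a site of FoxO factors, over 250 bases before and 50 bases after the start. Of the members, 8 had an entry, with 9 promoters in all; Wdr24 had none. GTAAACA was present once, as its reverse complement in the Sesn1 window, and the other motifs had no match. Among 32851 promoters of the same length, 0.974% held TCACGTGA, 3.97% held TGATGNAA and 3.65% held GTAAACA. The stretch before Sesn3 was 59.6% G and C, that before Depdc5 68.7%.

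Levels are given as normalized CPM, the counts of a gene scaled to library size, from the summed libraries of a mouse. A gene was called when its edgeR quasi-likelihood test, adjusted over 17178 genes by Benjamini-Hochberg, gave an adjusted p under 0.05 and its log2 fold change was beyond 0.5 in either direction. The targeted gene was examined first. Tsc2 was at 13.4, 24.7, 21.5 and 24.1 CPM in control mice 1 to 4 and at 8.70, 8.51, 7.30 and 11.0 CPM in Nav-Tsc2 mice 1 to 4. It was lower in all 4 Nav-Tsc2 mice, by a log2 fold change of -1.24 (SE 0.22, adjusted p = 0.00400). These counts cover the whole gene, including exons outside the deleted part, and 7.20% of its exon bases are shared with Pkd1 on the other strand.

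Of the 9 members, Sesn3 rose and Depdc5 fell in Nav-Tsc2 neurons, and 7 were not called. Over all genes tested, 17.1% were called, so 2 of 9 is near the background. The 2 called members were also those whose 4 control and 4 Nav-Tsc2 mice did not overlap, which held for 26.9% of all genes tested.

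**Figure D1:**
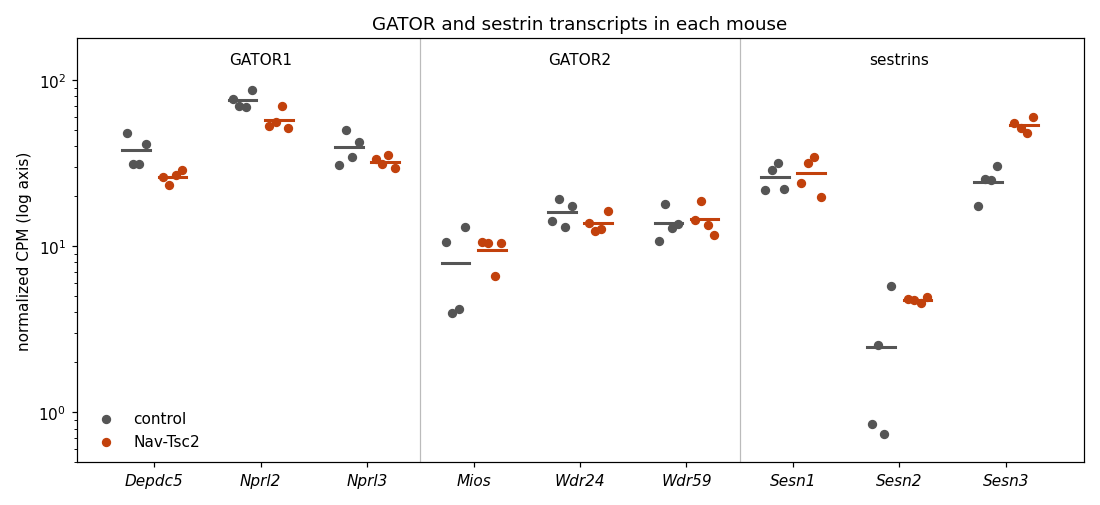
Normalized CPM (log axis) of the 9 members in each of 4 control (grey) and 4 Nav-Tsc2 (orange) mice, with a bar at each mean. Sesn3 lies between 17.4 and 30.4 CPM in control mice and between 48.4 and 60.0 CPM in Nav-Tsc2 mice, and Depdc5 between 31.4 and 47.9 CPM against 23.5 and 28.8 CPM.

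Depdc5 encodes a GATOR1 subunit that contacts the Rag GTPases. It was at 47.9, 31.4, 31.5 and 41.5 CPM in control mice 1 to 4 and at 26.1, 23.5, 26.8 and 28.8 CPM in Nav-Tsc2 mice 1 to 4. Every Nav-Tsc2 mouse was below every control mouse, with control mice 2 and 3 the closest to them. Mean CPM was 38.1 ± 8.08 (SD, n = 4) in control and 26.3 ± 2.20 (SD, n = 4) in Nav-Tsc2 mice, a log2 fold change of -0.53 (SE 0.16, adjusted p = 0.0388). Across all genes tested, 8.00% were called lower. The gene lies at chr5:32863701-32994236 on the plus strand (mm10).

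The Depdc5 call was close to both thresholds. With the replicate number as a block, its log2 fold change was -0.51 and its adjusted p = 0.0543. The call ended when control mouse 1 was left out (-0.40, adjusted p = 0.0892), control mouse 4 (-0.49, adjusted p = 0.0845), or Nav-Tsc2 mouse 1 (-0.53, adjusted p = 0.0964), 2 (-0.49, adjusted p = 0.105), 3 (-0.54, adjusted p = 0.0787) or 4 (-0.58, adjusted p = 0.0630). It held without control mouse 2 or 3. A single control library, library A of mouse 4, held the highest Depdc5 value of all 24 libraries, at 75.9 CPM, and without it the log2 fold change was -0.41 (adjusted p = 0.125).

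The other GATOR1 subunits had lower means in Nav-Tsc2 mice but were not called. Nprl2, the partner of Nprl3 at the catalytic end of the complex, was at 77.1, 70.1, 69.2 and 87.6 CPM in control mice and at 53.0, 55.8, 69.8 and 51.8 CPM in Nav-Tsc2 mice. Nav-Tsc2 mouse 3 lay just above control mouse 3, and the other 3 Nav-Tsc2 mice were below all controls. Its log2 fold change was -0.40 (SE 0.12, adjusted p = 0.0472), past the limit on p and short of the limit on fold. Without Nav-Tsc2 mouse 3 it was called, at -0.50 (adjusted p = 0.0193). Counting by adjusted p alone, 3 of 9 members and 21.1% of all genes passed.

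Nprl3 was at 30.9, 49.9, 34.5 and 42.3 CPM in control mice and at 33.4, 31.1, 35.4 and 29.6 CPM in Nav-Tsc2 mice. The groups overlapped, and its log2 fold change was -0.28 (SE 0.16, adjusted p = 0.238). Of its exon bases, 17.7% are shared with Mpg on the other strand, and the strand setting of the counting is not given in the sources used here, so its reads are uncertain there. In single libraries, each of Depdc5, Nprl2 and Nprl3 was below its control median in 11 of 12 Nav-Tsc2 libraries. These libraries come from 4 mice and are not independent, and the share of all genes with such a count was not computed. Summed per kilobase of exon, GATOR1 stood at 46.2 ± 4.73 CPM per kb in control and 35.1 ± 4.38 in Nav-Tsc2 mice (SD, n = 4 each), a sum in which Nprl2 has the largest share.

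None of the 3 GATOR2 members was called. Wdr24, a subunit that carries a RING domain needed for GATOR2 activity, was at 14.3, 19.4, 13.0 and 17.5 CPM in control mice and at 13.8, 12.4, 12.8 and 16.4 CPM in Nav-Tsc2 mice. The groups overlapped, with a log2 fold change of -0.21 (SE 0.17, adjusted p = 0.439). Wdr24 lies at chr17:25823627-25828730, on the same chromosome as the engineered Tsc2 locus and 1190997 bases from it.

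Wdr59, a WD-repeat subunit, was at 10.7, 18.1, 12.9 and 13.7 CPM in control and at 14.5, 18.9, 13.5 and 11.7 CPM in Nav-Tsc2 mice. Control and Nav-Tsc2 mice covered almost the same range, and the log2 fold change was 0.08 (SE 0.21, adjusted p = 0.836). Its sign depended on the mice included.

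Mios, the third WD-repeat subunit, was at 10.7, 3.96, 4.18 and 13.0 CPM in control mice and at 10.6, 10.5, 6.65 and 10.5 CPM in Nav-Tsc2 mice. Control mice 2 and 3 were the lowest and control mice 1 and 4 as high as the Nav-Tsc2 mice or higher, and the log2 fold change was 0.26 (SE 0.40, adjusted p = 0.699). Single control libraries ran from 0.0627 to 33.6 CPM and Nav-Tsc2 libraries from 5.16 to 13.8 CPM. The highest was again library A of control mouse 4, without which the log2 fold change was 0.66 (adjusted p = 0.217). Per kilobase, the GATOR2 members summed to 7.45 ± 1.25 CPM per kb in control and 7.14 ± 0.624 in Nav-Tsc2 mice (SD, n = 4 each).

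Sesn3 was the member with the smallest p. Sestrin3 binds GATOR2 as its relatives do and is known as a FoxO target. It was at 17.4, 25.3, 24.9 and 30.4 CPM in control mice 1 to 4 and at 55.6, 51.3, 48.4 and 60.0 CPM in Nav-Tsc2 mice 1 to 4. Every Nav-Tsc2 mouse was above every control mouse, with a wide gap between control mouse 4 and Nav-Tsc2 mouse 3. Mean CPM was 24.5 ± 5.38 (SD, n = 4) in control and 53.8 ± 5.07 (SD, n = 4) in Nav-Tsc2 mice, a 2.20-fold difference, with a log2 fold change of 1.13 (SE 0.17, adjusted p = 0.00148). Across all genes tested, 9.12% were called higher.

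The Sesn3 difference was present at the level of single libraries. All 12 Nav-Tsc2 libraries were above the control median of 22.0 CPM, and 9 of 12 were above the highest control library, at 50.4 CPM. Libraries of 1 mouse are not independent of each other. The lowest Nav-Tsc2 library, at 31.0 CPM, came from mouse 3. Leaving out any 1 mouse kept the adjusted p between 0.00154 and 0.00717. In the male mice alone its log2 fold change was 1.32 (adjusted p = 0.0196), and in the female mice alone it was 0.97 (adjusted p = 0.0703), which ended the call with 2 mice per genotype.

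**Figure D2:**
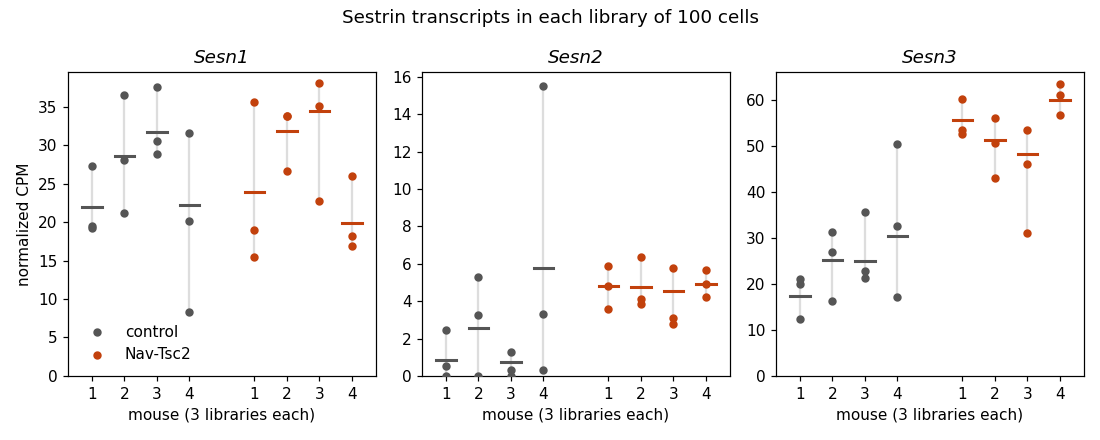
Normalized CPM of Sesn1, Sesn2 and Sesn3 in each of the 24 libraries (points, 3 per mouse) and in the summed libraries of each mouse (bars), control in grey and Nav-Tsc2 in orange. Nav-Tsc2 libraries of Sesn3 run from 31.0 to 63.6 CPM, and control libraries of Sesn2 include 3 at 0 and 1 at 15.5 CPM.

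Sesn2, the leucine-binding sestrin that stress and ATF4 are known to induce, was the least abundant member. It was at 0.847, 2.54, 0.742 and 5.76 CPM in control mice and at 4.83, 4.78, 4.56 and 4.93 CPM in Nav-Tsc2 mice. The Nav-Tsc2 mice lay close together and above 3 of the control mice, while control mouse 4 was above them all. Mean CPM was 2.47 ± 2.34 (SD, n = 4) in control and 4.77 ± 0.157 (SD, n = 4) in Nav-Tsc2 mice, with a log2 fold change of 0.95 (SE 0.60, adjusted p = 0.305), so Sesn2 was not called.

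The high control value of Sesn2 came from 1 library. Library A of control mouse 4 was at 15.5 CPM and the other libraries of that mouse were at 0.292 and 3.29 CPM. Of the 12 control libraries, 3 had no Sesn2 read and 8 were below every Nav-Tsc2 library, whose values ran from 2.80 to 6.34 CPM. These 12 come from 4 mice, so they are not independent. Without that library, a setting chosen after its value was seen, the log2 fold change was 1.60 (adjusted p = 0.0289), and without control mouse 4 it was 1.79 (adjusted p = 0.0329), both of which passed. With the replicate block it was 1.45 (adjusted p = 0.147) and in male mice alone 1.50 (adjusted p = 0.173), neither of which passed. When limma was given all 24 libraries singly, with a correlation for those of 1 mouse, it put Sesn2 at 2.95 (adjusted p = 0.00399). Sesn2 counts were low, from 41 to 291 reads per mouse, and library A of control mouse 4 also held the highest value of Depdc5, Nprl2 and Mios, 4 of the 9 members in all.

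Sesn1, a leucine-binding sestrin known as a p53 and FoxO target, was at 22.0, 28.6, 31.8 and 22.3 CPM in control and at 23.9, 31.9, 34.4 and 19.9 CPM in Nav-Tsc2 mice. The groups overlapped throughout, with mice 2 and 3 the highest in both. Its log2 fold change was 0.07 (SE 0.20, adjusted p = 0.846), and its sign depended on the mice included.

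**Figure D3:**
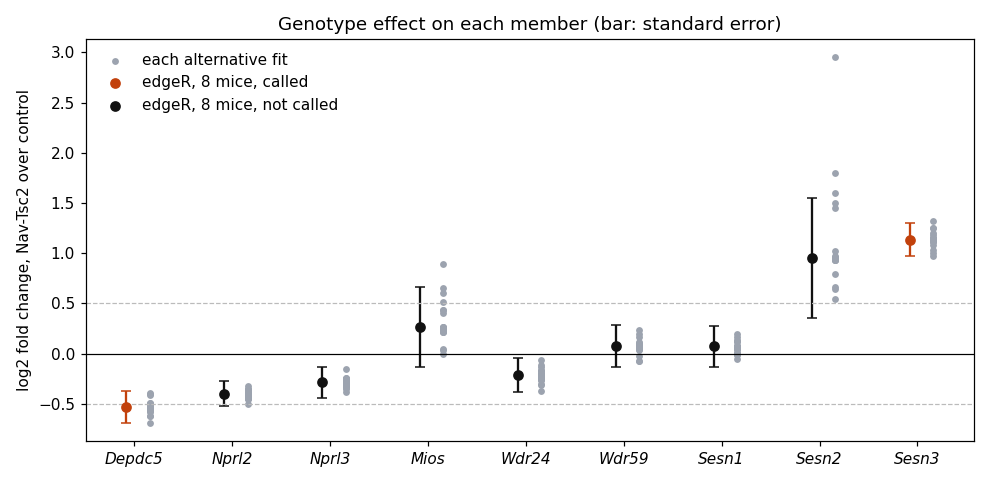
Log2 fold change of Nav-Tsc2 over control for each member, with its standard error, from the 8 mice in edgeR (orange where called, black where not), and from each alternative fit (grey points, no error shown). Dashed lines mark 0.5 in each direction; Sesn3 stays above the upper line in all fits, while the points of Sesn2 range from 0.55 to 2.95.

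Divided by exon length, the make-up of the sestrins differed between the 2 genotypes in the share of Sesn3. The share of Sesn3 in the sestrin sum was 16.5, 17.3, 16.6 and 21.6% in control mice and 33.0, 26.4, 24.1 and 38.0% in Nav-Tsc2 mice, and the groups did not overlap. Sesn1 held 74.2 ± 9.52% in control and 57.8 ± 8.01% in Nav-Tsc2 mice, and Sesn2 held 7.82 ± 7.14% and 11.8 ± 1.69% (SD, n = 4 each). For both Sesn1 and Sesn2 the shares of control and Nav-Tsc2 mice overlapped. These shares follow in part from the Sesn3 difference and carry no test of their own. The sestrin sum was 8.89 ± 1.35 CPM per kb in control and 11.8 ± 1.34 CPM per kb in Nav-Tsc2 mice (SD, n = 4 each).

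**Figure D4:**
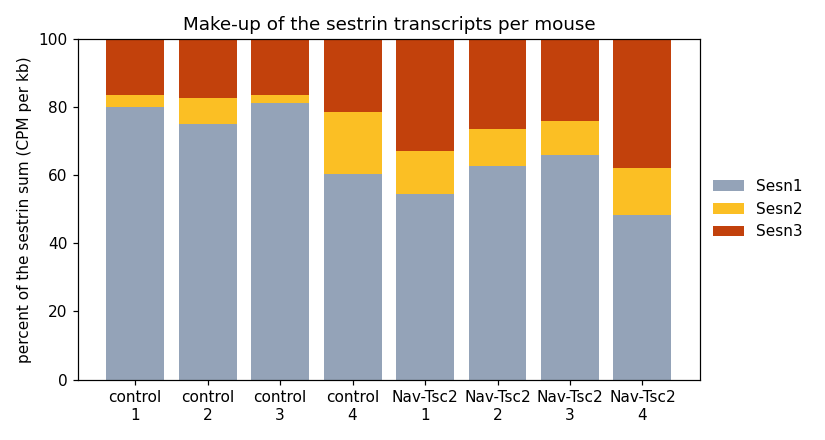
Percent of the sestrin sum (CPM per kb of exon) held by Sesn1, Sesn2 and Sesn3 in each mouse. The Sesn3 segment covers 16.5 to 21.6% in control mice and 24.1 to 38.0% in Nav-Tsc2 mice, and Sesn1 is the largest segment in all 8 mice.

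The members differed widely in level. On the scale of CPM per kilobase of exon in control mice, Nprl2 was highest at 37.8 ± 4.23 (SD, n = 4), followed by Sesn1 at 6.57, Nprl3 at 5.20, Wdr24 at 4.67, Depdc5 at 3.23, Sesn3 at 1.61, Wdr59 at 1.56, Mios at 1.22 and Sesn2 at 0.711. Among neighbours in this order, the ranges over mice were apart only between Nprl2 and Sesn1 and between Depdc5 and Sesn3. In Nav-Tsc2 mice Sesn3, at 3.52 CPM per kb, stood above Depdc5, at 2.23, with ranges apart, the reverse of their control order. Measured by the longest transcript in place of all exons, Nprl3 moved to the second place in both genotypes.

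Spread between libraries of a mouse was larger than spread between summed mice for 8 of the 9 members, Wdr59 being the exception. A summed mouse pools 3 libraries, so its spread is smaller in part by construction. The 2 values therefore do not show whether libraries vary more than mice. On the log2 scale the SD within a mouse was 0.41 for Sesn3 and 0.37 for Depdc5, against 0.25 and 0.23 among mice of a genotype. For Sesn2 it was 1.19 and for Mios 1.03, the 2 members with the fewest reads. Each library held about 100 cells, and the summed mouse is the unit of every test but the limma fit of single libraries.

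Sex did not separate the members. None of the 9 was called for sex or for a genotype by sex interaction, and none had an unadjusted p under 0.05 in edgeR or DESeq2. Over all genes edgeR called 5 for sex (0.0291%) and 1 for the interaction (0.00582%), with 1144 and 1583 at an unadjusted p under 0.05, while DESeq2 called 131 and 371. The interaction estimate for Sesn3 was 0.36 on the log2 scale (SE 0.30, adjusted p = 0.790).

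The rest of the pathway was read from 8 lists, 42 genes in all, of which 41 were tested. In Nav-Tsc2 mice 8 were called higher and 1 lower, where 9.12% and 8.00% of all genes tested were. The median log2 fold change over these genes was 0.18, against 0.07 over the members and 0.0082 over all genes tested. None of the 2 other GATOR2 subunits was called, nor any of the 4 genes of KICSTOR, which anchors GATOR1 at the lysosome, nor any of the 5 Ragulator genes. The GATOR2 subunit gene Seh1l went from 59.2 ± 6.64 to 42.3 ± 5.68 CPM (SD, n = 4 each), at -0.49 (adjusted p = 0.0243). Lamtor3, a Ragulator gene, was higher, at 0.29 (adjusted p = 0.0239). Both passed the limit on p and fell short of the limit on fold. Of 4 other amino acid sensors 1 was called, Castor2, which pairs with the arginine sensor Castor1 and binds GATOR2, from 28.4 ± 6.54 to 53.3 ± 9.10 CPM (SD, n = 4 each), a log2 fold change of 0.91 (adjusted p = 0.00761). The Rag GTPases, on which GATOR1 acts, had 2 of 4 called, Rragc at 0.69 (adjusted p = 0.0135) and Rragd at 0.59 (adjusted p = 0.0223). RagC and RagD are the partners of RagA and RagB and not the GATOR1 substrates themselves.

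Among 6 ubiquitin regulators of GATOR and the sestrins, Rnf167, a lysosomal ubiquitin ligase that acts on Sestrin2, fell from 124 ± 13.3 to 84.3 ± 4.08 CPM (SD, n = 4 each; log2 fold change -0.56, adjusted p = 0.00315). Of 9 tested genes of AMPK, a kinase that sestrins are known to activate, and its activator LKB1, 2 were called, both higher. Prkab1, a regulatory subunit, went from 2.67 ± 0.782 to 8.29 ± 0.916 CPM (SD, n = 4 each; log2 fold change 1.63, adjusted p = 0.00235). Prkaa2, a catalytic subunit, stood at 0.57 on the log2 scale (adjusted p = 0.0249). The other catalytic subunit gene, Prkaa1, was lower, from 81.7 ± 15.4 to 59.0 ± 6.30 CPM (SD, n = 4 each), at -0.47 (adjusted p = 0.0449). It passed the limit on p and fell short of the limit on fold. So did Prkab2 at 0.42 (adjusted p = 0.0306) and Prkag2 at 0.32 (adjusted p = 0.0407), both higher.

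Of 7 transcription factors known to act on sestrin genes, 3 were called, all higher. Atf4 was at 88.9, 76.1, 102 and 81.9 CPM in control mice and at 194, 199, 208 and 194 CPM in Nav-Tsc2 mice, with no overlap and a log2 fold change of 1.19 (adjusted p = 9.36e-05). Nfe2l2, the factor of the oxidative stress response, stood at 0.72 (adjusted p = 0.00408) and Hif1a, the factor of the hypoxia response, at 0.78 (adjusted p = 0.00187). Trp53, which encodes p53, stood at 0.27 (adjusted p = 0.204), and the 3 FoxO genes, at -0.13 to -0.04, were not called either.

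**Figure D5:**
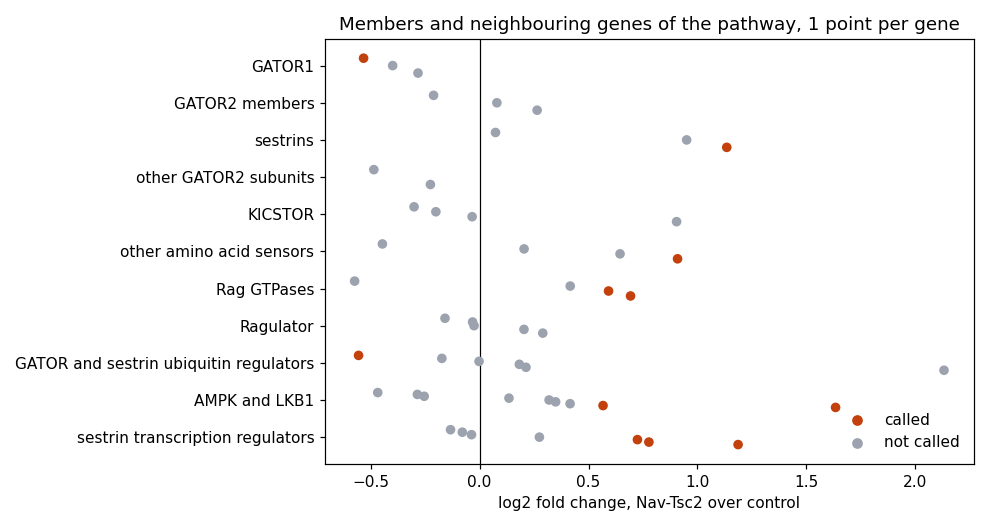
Log2 fold change of Nav-Tsc2 over control for each tested gene of the member groups and the pathway lists, 1 point per gene, orange where called. The called points are Depdc5 and Rnf167 on the left and Sesn3, Castor2, Rragc, Rragd, Prkaa2, Prkab1, Atf4, Nfe2l2 and Hif1a on the right.

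Markers of several cell types differed between genotypes beside these results. In bulk samples, fewer cells of a type and less RNA per cell cannot be told apart. Nociceptor markers were present in every mouse, summing to 14756 to 24712 CPM in control and 12885 to 16307 CPM in Nav-Tsc2 mice. Of these, 3 of 10 were called lower and 1 higher. The lower sum rests on Calca, a gene also in the peptidergic list, which went from a mean of 10162 to 2557 CPM. Tubb3, not called, went the other way, from 5908 to 7774 CPM, as did Prph, from 902 to 1481 CPM. Peptidergic markers summed to 9619 to 19558 CPM in control and 4310 to 7104 CPM in Nav-Tsc2 mice, with 2 of 6 lower, and nonpeptidergic markers to 578 to 1899 and 1837 to 2014 CPM, with 0 of 7 called. Markers of C-fibre low-threshold mechanoreceptors summed to 28.9 to 279 and 164 to 1504 CPM, with 1 of 4 higher, and large-diameter neuron markers to 752 to 1334 and 627 to 904 CPM, with 1 of 6 lower. Injury markers summed to 431 to 1007 and 2584 to 3598 CPM, with 6 of 6 called higher, where 9.12% of all genes tested were. Among them Npy was near the floor in control mice, at 0.310 ± 0.306 CPM (SD, n = 4).

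Of the non-neuronal lists, glial markers summed to 2992 to 3122 CPM in control and 1973 to 2560 CPM in Nav-Tsc2 mice, with 1 of 12 tested lower, S100b. Endothelial markers summed to 0.326 to 1.85 and 7.73 to 20.1 CPM. Of these 6 genes Flt1, Kdr and Ly6c1 were called higher. Flt1 and Ly6c1 passed the low-count filter only through the Nav-Tsc2 mice, and Kdr was near the floor in control mice, at 0.358 ± 0.337 CPM (SD, n = 4). Pecam1, Cdh5 and Cldn5 had means under 0.5 CPM in both genotypes and were not tested. Macrophage markers summed to 1.77 to 6.95 and 7.76 to 19.4 CPM. Of these 7 genes only Cx3cr1 was called, having also passed the filter only through the Nav-Tsc2 mice; C1qb went from a mean of 1.75 to 0.574 CPM without being called, and C1qa and Ptprc, near 0 in both genotypes, were not tested. Fibroblast markers summed to 73.1 to 236 and 121 to 196 CPM, with 0 of 6 called, and red blood cell markers to 1.63 to 2.80 and 0.473 to 0.672 CPM, with 0 of 3 tested called and Hbb-bt at 0 in all mice. The part of any of these lists in the Sesn3 and Depdc5 differences was not tested.

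Over the 8 mice, among 8445 genes with a mean of at least 10 CPM, the genes whose log2 CPM was most like that of Sesn3 were Tollip, Igfbp3 and Kdm1a, with Pearson r of 0.995, 0.989 and 0.987. For Depdc5 they were Pnisr, Nmi and Igtp, with r of 0.983, 0.962 and 0.958, and for Wdr24 they were Avpi1, Srsf2 and Lsm12, with r of 0.958, 0.930 and 0.907. The 8 points share the genotype split of 4 and 4, so these values describe likeness in this design alone.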

How the data were processed

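RNA of 24 libraries, 3 from each of 8 mice, was amplified with the SMARTer Ultra Low kit, which does not mark strand, and sequenced as single 50-base reads. The submitters' processing notes name FastQC, STAR, HTSeq and DESeq2 and the build mm10; versions and the strand setting are not given in the sources used here. The deposited values are whole read counts per Ensembl gene made by the authors, with no normalization. A further deposited table holds the authors' own normalized values, fold changes and p-values, and was not used. Reads not assigned to a gene, 48.8 ± 1.20% of reads in control and 51.1 ± 1.94% in Nav-Tsc2 libraries (SD, n = 12 each), were left out; most of them did not align uniquely (37.5 to 42.6% of reads). Libraries held 8339220 to 34228180 counts on genes, and mice 47959617 to 61290435.

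Counts were summed per mouse and tested in edgeR 4.0.16 (R 4.3.3; filterByExpr, TMM, quasi-likelihood F-test) without covariates. limma 3.58.1 fitted the libraries singly and DESeq2 1.42.0 was an alternative. Other alternatives were scaling, the low-count filter, weighting of libraries, a robust fit, sex, the replicate block, each mouse left out and each sex alone. Leaving out library A of control mouse 4 was added after seeing the data. Scripts were tested on counts simulated for the genotype comparison. Of genes changed by 1 on the log2 scale 19 of 92 were recovered, and of those changed by 2, 60 of 94. There were 3 false calls among 16590 genes. Genes that were not called may therefore still differ by such amounts. Lengths and overlaps came from GENCODE M21, where 7 of 9 member identifiers had the same version.

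Members and lists were chosen with earlier results of these data known. Named genes were all members, Tsc2, called genes of the pathway lists, and the 3 genes most like the member with the smallest p in each group. Trp53, Seh1l, Lamtor3, Prkaa1, Prkab2, Prkag2 and the marker genes named were added beyond this rule.

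Mice with the same replicate number shared sex. Their deviations from the group means correlated at 0.184, 0.185, 0.108 and 0.199 over 8445 genes with a prior count of 2, so the blocked fit is given where it changed a call. Mice of the same sex with different numbers correlated at 0.198, 0.0627, 0.185 and 0.110, so the check does not single out the number. With a pseudocount of 0.5 CPM these were 0.101, 0.121, 0.0341 and 0.124 for the same number. Spearman rank correlations for the same number were near 0, at 0.0035, 0.060, -0.082 and 0.035. The labels do not say what a shared number means.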

Additional observations from a re-analysis of the deposited data

Results flagged for a closer look

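The Mios level of Nav-Tsc2 mouse 3, 6.65 CPM, lay far from the other 3 Nav-Tsc2 mice, which were at 10.5 to 10.6 CPM. Its gap to the nearest mouse was above Dixon's 95% critical value for 4 samples. Of 20 groups of 4 mice examined (9 members and Tsc2 in each genotype) this was 1 flag, and chance alone gives about 1. The libraries of that mouse were at 5.16, 12.4 and 6.75 CPM.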

How the results depend on the processing

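With the replicate block 1 member was called, Sesn3, and Depdc5 was lost. The same count of 1 came without the low-count filter, where the adjusted p of Depdc5 was 0.0530, and in male mice alone; in female mice alone 0 of 9 were called and 494 of all genes, against 2941. Leaving out each mouse gave 1 to 2 called members. Without library A of control mouse 4 the count was 2, Sesn3 and Sesn2. In the 24-library fit it was also 2, the same pair, with Depdc5 at -0.50 just under the fold limit. Sesn3 was called in 19 of 20 alternative fits and Depdc5 in 8 of 20, both with 1 direction throughout. The block changed no other member's call, although the adjusted p of Nprl2 became 0.107. With 1 mouse left out, the log2 fold change of Wdr59 ran from -0.072 to 0.23 and that of Sesn1 from -0.052 to 0.20; in female mice alone Wdr59 was at -0.076. The reversed values were -0.026 and -0.072 for Wdr59 without control mouse 1 and Nav-Tsc2 mouse 2, and -0.0033, -0.0095 and -0.052 for Sesn1 without control mouse 1, Nav-Tsc2 mouse 2 and Nav-Tsc2 mouse 3. The cause was not tested. The rise of 12.4 percentage points in the Sesn3 share stayed between 9.85 and 16.7 under every alternative run. Sesn2 had 41 to 291 reads per mouse and Mios 209 to 649.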
